A study of Homo sapiens with 12 samples.

Results

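Domains of histone acetylation around the genes ANKRD33B, HIVEP3 and LRMP were examined in SUDHL4, a cell line of diffuse large B-cell lymphoma of the germinal-centre type. The measurement was ChIP-seq for H3K27ac, histone H3 acetylated at lysine 27. The 3 loci were chosen by their loss of peaks in clones without EP300, so their EP300-KO values describe that choice and carry no test. Members are the deposited peaks inside fixed hg19 intervals of 140 kb on chromosome 5 (10540000 to 10680000, ANKRD33B), 440 kb on chromosome 1 (41960000 to 42400000, HIVEP3) and 150 kb on chromosome 12 (25130000 to 25280000, LRMP). Of 235688 peaks in 6 lists, 575 lay in these intervals: 124 at ANKRD33B, 342 at HIVEP3 and 109 at LRMP. Peaks of the 6 lists that share a base were joined into merged regions, of which 113 of 48876 lay in the intervals.

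The clones fall into 3 groups of 2, made with CRISPR/Cas9 in the same line. EP300-KO clone 1 was cut in exon 17 of EP300 and EP300-KO clone 2 in exon 24. CREBBP-KO clone 1 was cut in exon 15 of CREBBP per its protocol, although its name carries another exon number, and CREBBP-KO clone 2 in exon 20. The 2 WT clones were cut at PPP1R12C, a site used as a harmless control, and keep both acetyltransferase genes. Each clone grew from a single cell and was kept as a stable line, so the 2 clones of a group are separate lines of 1 tumour. The SD over them mixes differences between lines with those between their libraries, and in the knock-out groups with the exon cut. It covers no difference between tumours. Each of the 6 immunoprecipitated libraries has 1 peak list, called against its own input, and the inputs bring the series to 12 libraries.

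H3K27ac marks active promoters and enhancers, and wide clusters of such peaks often lie at genes that define a cell type. EP300 and CREBBP are closely related acetyltransferases that place this mark, and CREBBP is often mutated in germinal-centre lymphomas. LRMP, listed by RefSeq as IRAG2 and also known as JAW1, is a membrane protein of the endoplasmic reticulum found mainly in lymphoid cells and high in germinal-centre B cells. HIVEP3 is a large zinc-finger protein that binds DNA motifs resembling those of NF-kappaB and is known in mice for its part in bone formation. ANKRD33B carries ankyrin repeats, and little is known of its function. In the RefSeq gene order, ANKRD33B lies between ROPN1L and DAP with no other coding gene overlapping it, HIVEP3 lies between EDN2 and GUCA2B and overlaps LOC128125817, and LRMP lies between BCAT1 and ETFRF1 and overlaps DNAI7.

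The promoters of the 3 genes are shown because the start placed on hg19 for each gene, 1 of several listed for HIVEP3 and LRMP, differed: acetylated and lost without EP300 at ANKRD33B, acetylated and kept at LRMP, and without a peak in any clone at HIVEP3. Each sequence runs 5′ to 3′ from 250 bases before to 50 bases after the start in RefSeq (GRCh38.p14), with every CG dinucleotide in capitals.
ANKRD33B promoter, chr5:10563820-10564119, plus strand: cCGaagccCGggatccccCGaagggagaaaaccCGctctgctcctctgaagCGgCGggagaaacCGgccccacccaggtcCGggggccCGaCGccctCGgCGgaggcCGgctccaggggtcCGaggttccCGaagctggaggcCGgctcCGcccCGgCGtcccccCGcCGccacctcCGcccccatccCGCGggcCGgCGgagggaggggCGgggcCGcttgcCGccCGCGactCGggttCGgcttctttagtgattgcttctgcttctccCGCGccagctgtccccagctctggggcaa
HIVEP3 promoter, chr1:41918873-41919172, minus strand: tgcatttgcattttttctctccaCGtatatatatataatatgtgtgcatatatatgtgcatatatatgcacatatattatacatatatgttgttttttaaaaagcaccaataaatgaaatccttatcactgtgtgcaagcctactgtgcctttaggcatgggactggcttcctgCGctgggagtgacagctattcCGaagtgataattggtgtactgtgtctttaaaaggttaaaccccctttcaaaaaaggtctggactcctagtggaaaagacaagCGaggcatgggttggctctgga
LRMP promoter, chr12:25052456-25052755, plus strand: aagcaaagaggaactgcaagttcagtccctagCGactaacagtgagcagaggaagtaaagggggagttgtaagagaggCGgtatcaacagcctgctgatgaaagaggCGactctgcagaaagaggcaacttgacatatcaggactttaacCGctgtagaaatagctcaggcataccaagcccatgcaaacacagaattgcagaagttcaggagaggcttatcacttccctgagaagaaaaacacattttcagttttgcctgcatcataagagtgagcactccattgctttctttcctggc
The ANKRD33B promoter is 74.7% G or C and holds 35 CG dinucleotides, against medians of 58.7% and 14 over 35116 RefSeq promoters of the same length. The LRMP promoter is 46.3% G or C with 4 CG dinucleotides, and the HIVEP3 promoter 38.7% with 4. The GC box GGGCGG, searched on both strands, occurs 4 times in the ANKRD33B window and in neither of the other two, and at least once in 45.0% of all promoters. RefSeq lists 2 starts for HIVEP3, 117 kb apart, and the one shown is the start inside the interval. A farther start of HIVEP3, with 76.3% G or C and 37 CG dinucleotides, was not placed on hg19. LRMP has 3 listed starts, the last pair 478 bases apart and the outermost pair 55.1 kb apart, and the most upstream of them was not placed on hg19 either.

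The lists differed in length before any locus was considered. EP300-KO clones had 35054 and 35841 peaks over 26.1 and 26.2 Mb, CREBBP-KO clones 36096 and 41099 peaks over 28.2 and 35.1 Mb, and WT clones 46940 and 40658 peaks over 33.9 and 31.3 Mb. The smaller total of the EP300-KO clones moves in the same direction as the losses at the 3 loci, and its part in them was not tested. A smaller share of cells with the mark, less of the mark per cell and a difference in sequencing depth cannot be told apart. Depth is unknown here. The B-cell genes PAX5, CD79A and MS4A1 and the germinal-centre gene BCL6 had a peak within 5 kb of the start in 6 of 6 clones, while the T-cell gene CD3E, the monocyte gene CD14 and the hepatocyte gene ALB had none in any clone.

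ANKRD33B lost nearly its whole domain without EP300. EP300-KO clones had 5 and 7 peaks in the interval, CREBBP-KO clones 23 and 31, and WT clones 28 and 30. The covered length was 2.08 and 2.80 kb in EP300-KO clones, 15.5 and 21.6 kb in CREBBP-KO clones, and 20.3 and 20.8 kb in WT clones. Both EP300-KO clones lay far below the other 4, and the CREBBP-KO clones lay on either side of the WT clones. The EP300-KO mean was thus 11.9 ± 2.45% of the WT mean and the CREBBP-KO mean 90.3 ± 20.9% (SD, n = 2 each). With each clone scaled to its own total covered length, the EP300-KO share was 14.8%.

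HIVEP3 and LRMP kept more of their acetylation. At HIVEP3, EP300-KO clones had 38 and 44 peaks covering 26.4 and 28.6 kb, CREBBP-KO clones 69 and 61 peaks covering 47.5 and 57.7 kb, and WT clones 64 and 66 peaks covering 50.5 and 52.9 kb. At LRMP, EP300-KO clones had 13 and 18 peaks covering 15.5 and 20.8 kb, CREBBP-KO clones 16 and 14 peaks covering 31.6 and 35.5 kb, and WT clones 32 and 16 peaks covering 29.5 and 33.3 kb. In both intervals the EP300-KO clones lay below all 4 others in covered length, but not in the number of peaks at LRMP. The EP300-KO share of the WT mean was 53.2 ± 3.05% at HIVEP3 (SD, n = 2) and 57.7% at LRMP, where the 2 clones had 49.3 and 66.2%. The CREBBP-KO share was 102 ± 13.9% at HIVEP3 and 107 ± 8.80% at LRMP (SD, n = 2 each). Scaled to each clone's total, the EP300-KO share was 66.1% at HIVEP3 and 71.6% at LRMP. Collapse of a domain without EP300 therefore describes the ANKRD33B interval. At the other two the loss was partial and differed between stretches.

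**Figure D1:**
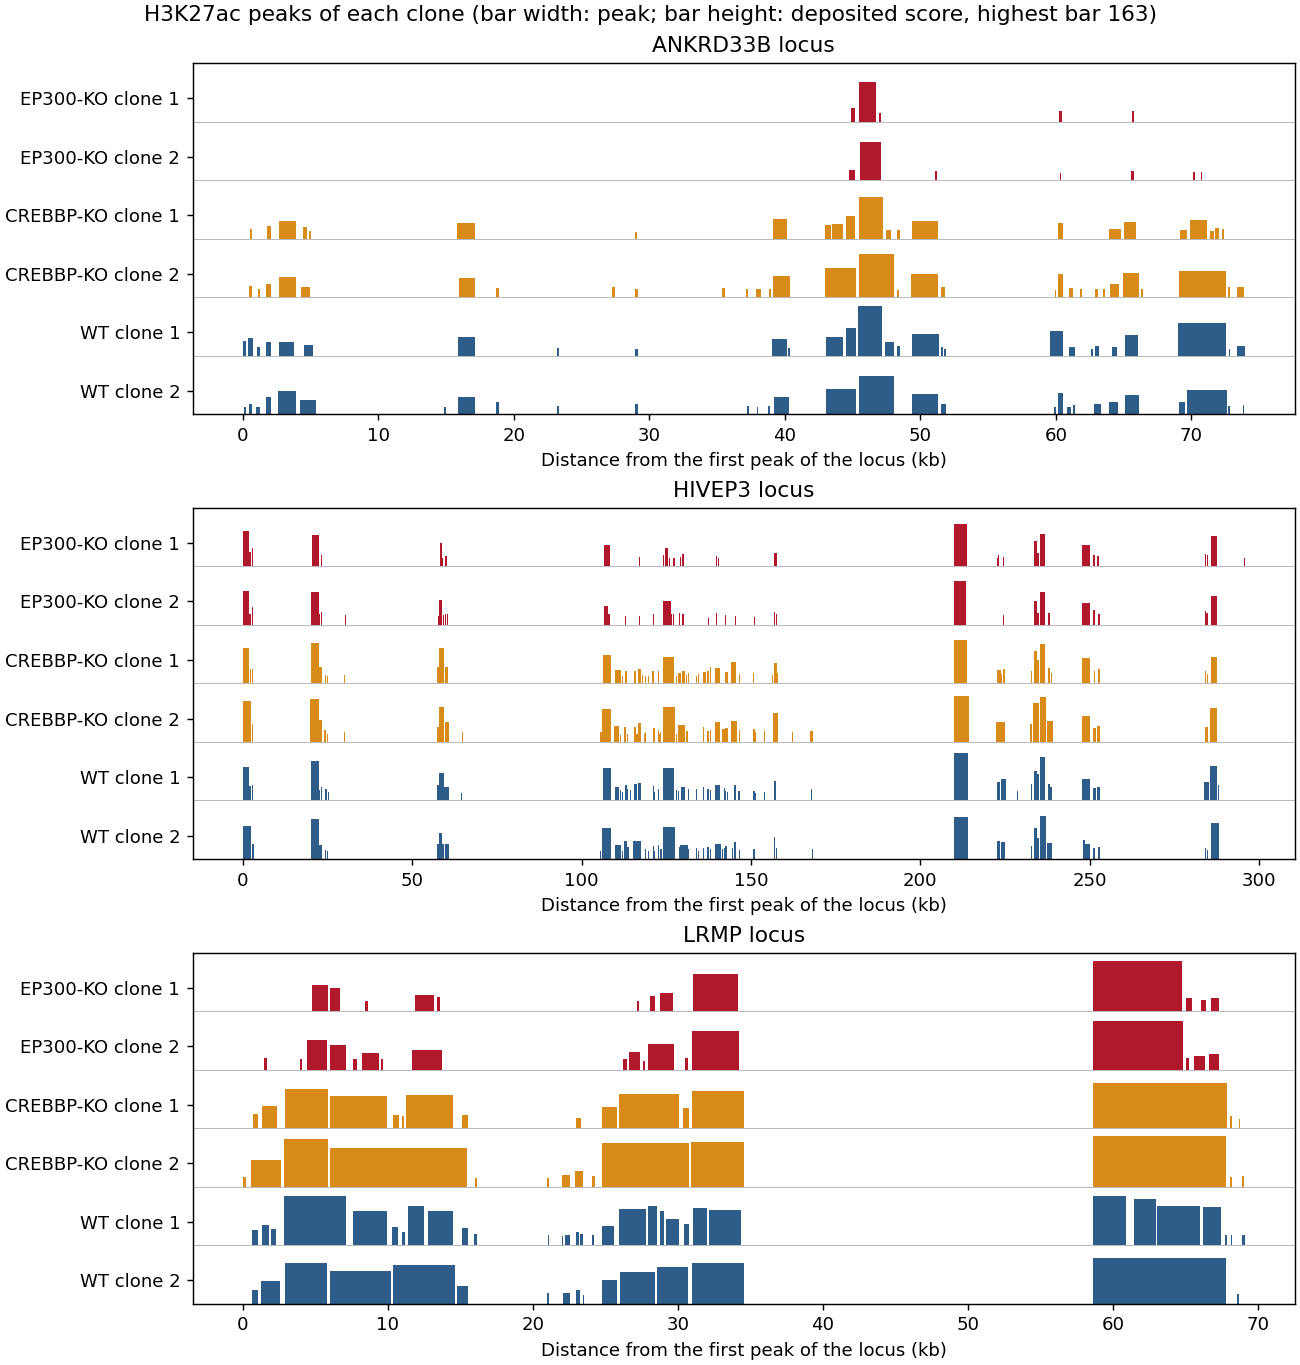
Deposited H3K27ac peaks of the 3 loci in the 6 clones, with distance from the first peak of the locus in kb on the x axis and 1 row per clone. Bar width is the peak and bar height its deposited score, up to 163. The EP300-KO rows at ANKRD33B hold 1 tall peak and a few small ones, while the CREBBP-KO and WT rows hold 23 to 31 peaks.

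The start site of ANKRD33B had no peak within 2 kb in either EP300-KO clone. CREBBP-KO clones had 3 and 4 peaks there covering 1731 and 2039 bases, and WT clones had 5 and 5 peaks covering 2384 and 2214 bases. In both EP300-KO clones the nearest peak lay 43 kb away. Of 5 merged regions around the start, the longest (10564597 to 10565912) covered 1259 and 1297 bases in CREBBP-KO clones and 1104 and 1264 bases in WT clones. A smaller region at 10561970 to 10562201, with 232 and 110 bases in WT clones, was missing in both CREBBP-KO clones as well as in both EP300-KO clones. The GC-rich promoter printed above belongs to this start.

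One peak of 1000 bases or more, 43 kb from the start, remained at ANKRD33B in each EP300-KO clone, beside smaller ones. The merged region 10607347 to 10610057 covered 1418 and 1587 bases in EP300-KO clones, 2227 and 2610 bases in CREBBP-KO clones, and 2524 and 2521 bases in WT clones. Its EP300-KO share was 59.6 ± 4.74% of the WT mean (SD, n = 2). This was the best-scoring peak of the locus in every clone, with scores of 128 and 123 in EP300-KO clones, 136 and 139 in CREBBP-KO clones, and 162 and 123 in WT clones. The score is the authors' own value and its meaning is not stated, so it only ranks peaks within 1 list. Peaks scoring higher made up 9.65 and 9.37% of the EP300-KO lists, 4.14 and 5.85% of the CREBBP-KO lists, and 1.30 and 7.25% of the WT lists. It was also the only peak of 1000 bases or more left in the EP300-KO clones, against 6 and 8 such peaks in CREBBP-KO clones and 7 and 9 in WT clones.

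The rest of the ANKRD33B domain shrank to fragments or vanished. Region 10631011 to 10634578, the widest by WT mean, covered 0 and 274 bases in EP300-KO clones, 2555 and 3452 bases in CREBBP-KO clones, and 3541 and 3389 bases in WT clones. Region 10604947 to 10607222, next to the kept peak, covered 316 and 461 bases in EP300-KO clones, 1861 and 2252 bases in CREBBP-KO clones, and 2048 and 2198 bases in WT clones. On the other side of it, region 10611296 to 10613313 covered 0 and 193 bases in EP300-KO clones, 1914 and 2005 bases in CREBBP-KO clones, and 1950 and 1966 bases in WT clones. All fragments that remained lay next to the kept peak or beyond it, away from the start. Region 10577806 to 10579119, which lies between the start and the kept peak, had no peak in EP300-KO clones, 1285 and 1178 bases in CREBBP-KO clones, and 1284 and 1239 bases in WT clones. No EP300-KO peak of the interval reached outside the WT peaks: 0 bases in both clones lay beyond them. The 2 EP300-KO clones shared 62.9% of the bases that either covered.

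HIVEP3 divided into 6 stretches once gaps over 12500 bases were taken as breaks, and they fared unequally without EP300. Numbered by position on hg19, stretch 4 (42087364 to 42150157) covered 6.23 and 7.82 kb in EP300-KO clones, 22.6 and 25.9 kb in CREBBP-KO clones, and 20.7 and 25.5 kb in WT clones. It fell to 30.4 ± 4.84% of the WT mean in EP300-KO clones, against 105 ± 10.2% in CREBBP-KO clones (SD, n = 2 each). Stretch 5 (42191818 to 42235040), the other wide domain, covered 10.9 and 10.7 kb in EP300-KO clones, 13.6 and 17.6 kb in CREBBP-KO clones, and 16.2 and 15.0 kb in WT clones. Its EP300-KO share was 69.2 ± 1.16%. Stretch 1 (41981949 to 41985084) covered 2.60 and 2.76 kb in EP300-KO clones, 2.51 and 2.94 kb in CREBBP-KO clones, and 2.78 and 2.81 kb in WT clones. The EP300-KO share was 95.9 ± 4.10% there, 74.5 ± 4.81% in stretch 2 and 80.5 ± 0.488% in stretch 6 (SD, n = 2 each). In stretch 3 it was 48.0%, with 1.20 and 1.66 kb in EP300-KO clones, 2.96 and 3.17 kb in CREBBP-KO clones, and 3.16 and 2.81 kb in WT clones. With only peaks of at least 500 bases, it was 24.9% in stretch 3 and 69.5% in stretch 1. Scaled to each clone's total covered length, stretches 1 and 6 came to 119 and 101% and stretch 4 to 37.6%.

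Within stretch 4 the 2 widest regions by WT mean kept most of their length, and the other regions of both WT clones kept less or none, apart from 42138592 to 42140064 at 85.7 ± 16.8% (SD, n = 2). EP300-KO clones had 12 and 18 peaks in it, CREBBP-KO clones 39 and 37, and WT clones 34 and 40. Region 42106006 to 42109423 covered 2161 and 2952 bases in EP300-KO clones, 3271 and 3418 bases in CREBBP-KO clones, and 3346 and 3394 bases in WT clones. At the edge of the stretch, region 42087851 to 42090689 covered 1586 and 1499 bases in EP300-KO clones, 2550 and 2742 bases in CREBBP-KO clones, and 2374 and 2830 bases in WT clones. Between these, the longest region without a peak in either EP300-KO clone (42091622 to 42093590) covered 1343 and 1906 bases in WT clones. In the same span, region 42097216 to 42099596 covered 152 and 187 bases in EP300-KO clones, 1429 and 1877 bases in CREBBP-KO clones, and 2017 and 2322 bases in WT clones, the lowest share among kept regions of HIVEP3 at 7.81%. Of the 18570 bases covered in both WT clones, EP300-KO clones still covered 31.2 and 39.7%, and CREBBP-KO clones 85.7 and 92.3%.

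Outside stretch 4 the widest region of HIVEP3 kept most of its length, while other wide regions kept theirs unequally. Region 42191818 to 42196195, the widest by WT mean, covered 3858 and 3412 bases in EP300-KO clones, 3902 and 4378 bases in CREBBP-KO clones, and 4244 and 4279 bases in WT clones. Region 42267469 to 42269980 covered 1803 and 1891 bases in EP300-KO clones, 1692 and 2240 bases in CREBBP-KO clones, and 2390 and 2364 bases in WT clones. A sharper loss within stretch 5 was region 42204336 to 42207099, with 832 and 303 bases in EP300-KO clones, 1962 and 2739 bases in CREBBP-KO clones, and 2462 and 2388 bases in WT clones. The kept region with the highest share, 42229577 to 42232058, covered 2333 and 2194 bases in EP300-KO clones, against 2332 and 1916 bases in WT clones, so the groups overlapped.

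No clone had a peak within 2 kb of the HIVEP3 start inside the interval. The nearest peak lay 106 and 114 kb away in EP300-KO clones and 114 kb away in all CREBBP-KO and WT clones. The one at 106 kb (42277401 to 42277651) covered 251 bases in EP300-KO clone 1 and was in no other clone. The first merged region past the upper end of the interval, 42501856 to 42501962, held 107 bases in CREBBP-KO clone 2 and no peak in the other 5 clones. The farther listed start, 117 kb upstream in GRCh38, was not placed on hg19. If that spacing holds on hg19, it lies outside the interval and near this region. All the acetylation counted for HIVEP3 thus lies away from the start inside the interval. Exons and introns were not assigned because no hg19 annotation was used here.

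LRMP kept acetylation at the start printed above and lost length upstream of it. Its most upstream listed start, 55.1 kb before the printed one in GRCh38, was not placed on hg19 and has no value of its own here. If that spacing holds on hg19, this start lies inside the upstream stretch, in region 25148104 to 25160822. Both EP300-KO clones had a peak near that place. It ran from 4.73 to 5.85 kb past the first peak of the locus in clone 1, and from 4.42 to 5.81 kb in clone 2. Within 2 kb of the printed start, EP300-KO clones covered 3083 and 3083 bases, CREBBP-KO clones 3099 and 3109 bases, and WT clones 2533 and 3101 bases. The whole start-site region (25203892 to 25213131) covered 7433 and 7851 bases in EP300-KO clones, 9230 and 9158 bases in CREBBP-KO clones, and 8050 and 9177 bases in WT clones. Both EP300-KO clones were below both WT clones there, at 88.7 ± 3.43% of the WT mean (SD, n = 2). Its top score was 163 and 158 in EP300-KO clones, 147 and 163 in CREBBP-KO clones, and 160 and 146 in WT clones. Such scores rank peaks only within 1 list, so no comparison between clones is drawn from them. Scaled to each clone's total, the stretch that holds this region came to 108% of WT in EP300-KO clones.

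The upstream stretch of LRMP (25145275 to 25179843), 24.0 kb from the start-site stretch, covered 8.03 and 12.9 kb in EP300-KO clones, 22.1 and 26.0 kb in CREBBP-KO clones, and 21.1 and 24.0 kb in WT clones. The EP300-KO share was 46.4 ± 15.3% of the WT mean and the CREBBP-KO share 107 ± 12.3% (SD, n = 2 each). Scaled to each clone's total covered length, the EP300-KO share was 57.5%. As percents of the WT mean, the 2 EP300-KO clones lay farther apart here than at ANKRD33B or in stretch 4 of HIVEP3, and both lay below every other clone. Its widest region, 25148104 to 25160822, covered 3535 and 6290 bases in EP300-KO clones, 11250 and 12529 bases in CREBBP-KO clones, and 10549 and 12152 bases in WT clones. Region 25170017 to 25176026 covered 1374 and 3158 bases in EP300-KO clones, 5562 and 5991 bases in CREBBP-KO clones, and 4824 and 5608 bases in WT clones. EP300-KO clone 1 had the least in both of these. Directly beside it, region 25176163 to 25179843 covered 3122 and 3238 bases in EP300-KO clones, 3580 and 3681 bases in CREBBP-KO clones, and 3211 and 3624 bases in WT clones, with the EP300-KO and WT clones overlapping. At the far edge, region 25145847 to 25147892 had 0 and 238 bases in EP300-KO clones, 1356 and 2046 bases in CREBBP-KO clones, and 1279 and 1639 bases in WT clones.

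**Figure D2:**
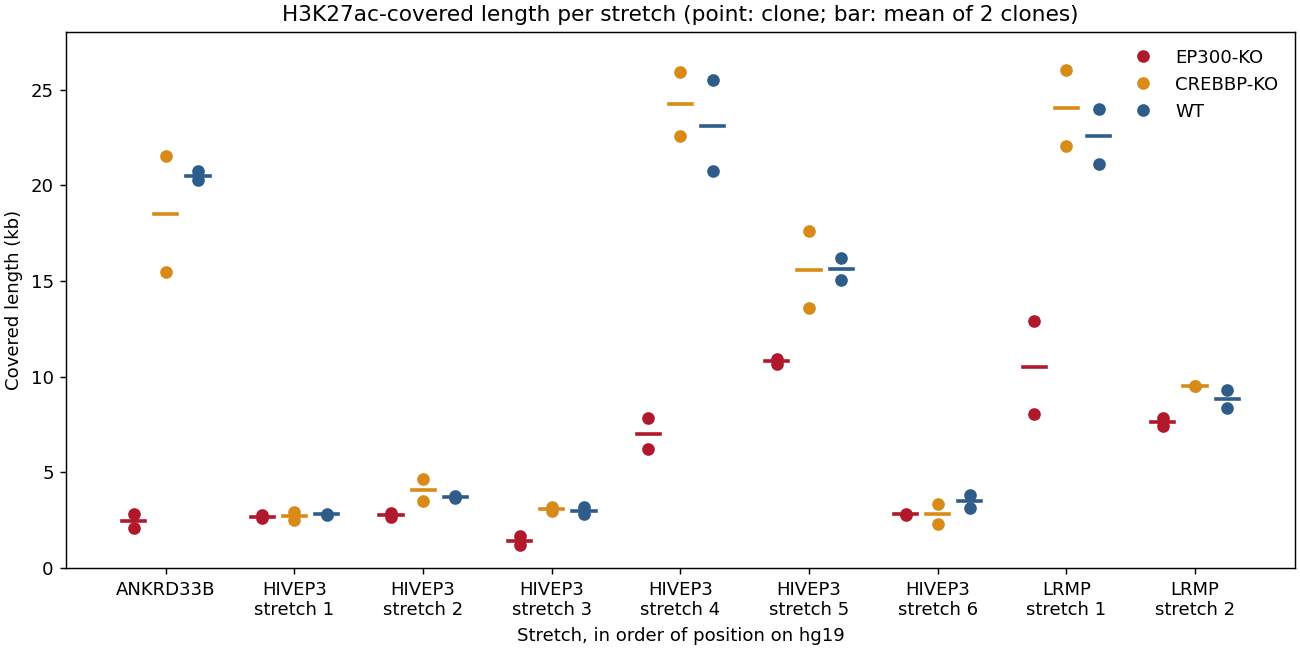
Covered length in kb (y axis) of each stretch of the 3 loci (x axis, in order of position), with 1 point per clone and a bar at the mean of 2 clones. EP300-KO points lie far below the rest at ANKRD33B (2.08 and 2.80 kb), HIVEP3 stretch 4 (6.23 and 7.82 kb) and LRMP stretch 1 (8.03 and 12.9 kb), and near the rest at HIVEP3 stretch 1 and LRMP stretch 2.

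Counted by region, 74 merged regions of the 3 loci had a peak in both WT clones. Of these, 33 (44.6%) had none in either EP300-KO clone, 11 had one in 1 EP300-KO clone and 30 in both. Over all regions of both WT clones, 14.8% had no peak in either EP300-KO clone. The loci were chosen on this contrast, so nothing is read from the gap. By locus, the regions without an EP300-KO peak were 16 of 22 at ANKRD33B (72.7%), 14 of 44 at HIVEP3 (31.8%) and 3 of 8 at LRMP (37.5%). With only peaks scoring at least 30, the count at ANKRD33B was 9, and with the lists cut to equal length it was 6. Both cutoffs also took low-scoring peaks out of the WT lists. Fewer than the 22 regions then had a peak in both WT clones, so these counts are not shares of 22. Without EP300-KO clone 2 the count at HIVEP3 was 22, and without WT clone 2 the count at LRMP was 7.

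The lost regions were mostly short. Their median WT mean was 384 bases, against 2124 bases for the 30 kept in both EP300-KO clones. Among regions of at least 1000 bases by WT mean, 3 of 8 at ANKRD33B, 1 of 18 at HIVEP3 and 0 of 5 at LRMP had no EP300-KO peak, beside 144 of 10020 (1.44%) over all regions. Of the 30 kept regions, 23 had fewer covered bases in both EP300-KO clones than in both WT clones (4 of 4 at ANKRD33B, 16 of 22 at HIVEP3 and 3 of 4 at LRMP), where 44.4% of all kept regions did. This contrast too is the one that chose the loci.

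**Figure D3:**
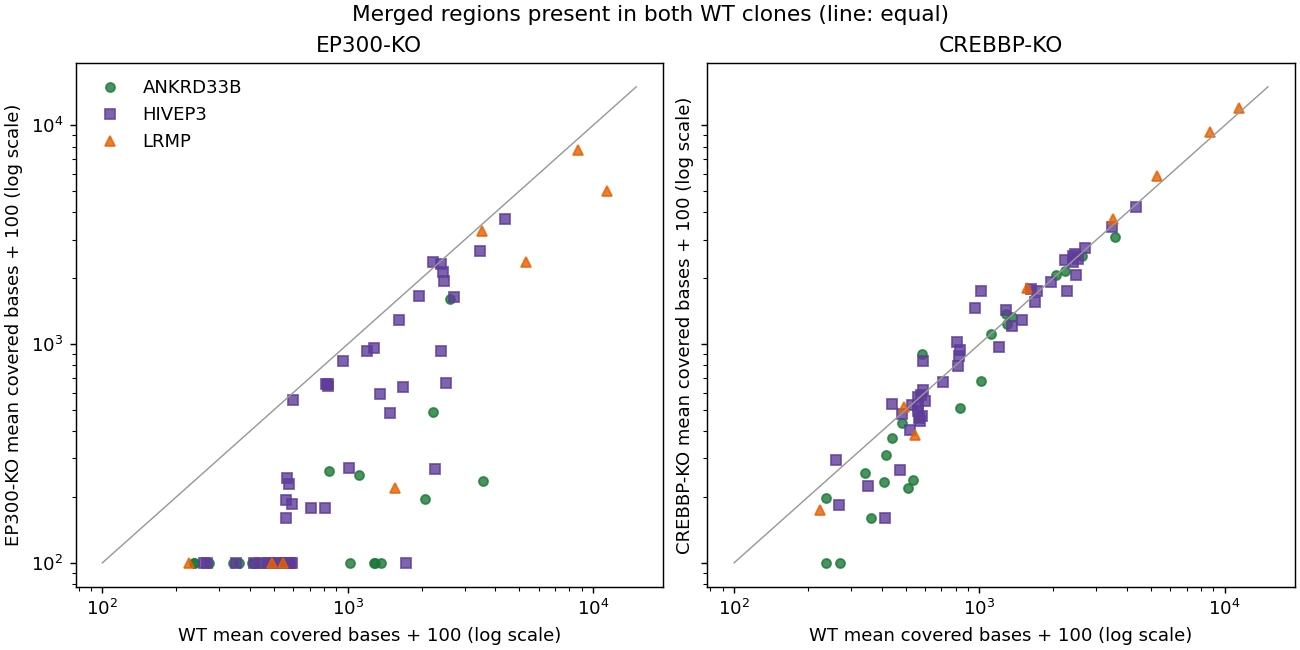
Covered bases plus 100 of the 74 merged regions present in both WT clones, with the WT mean on the x axis and the EP300-KO mean (left) or CREBBP-KO mean (right) on the y axis, both on log scales, with a line of equal values. In the EP300-KO panel 33 points lie at the floor of 100, which stands for no peak, while in the CREBBP-KO panel 2 do.

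The loci were named for their loss without EP300, but all 6 lists were known when they were chosen. The CREBBP-KO values are therefore not independent of that choice, and the limma values of the members, from a fit over all regions or domains, are given as a description. Of the 74 regions, 2 lacked a peak in CREBBP-KO clones altogether, both at ANKRD33B (10561970 to 10562201, and 10585150 to 10585295), 11 had one in 1 clone and 61 in both. Over all regions of both WT clones, 4.94% had no CREBBP-KO peak. By limma on log2(covered bases + 100), 0 of the 48 regions tested in the loci passed an adjusted p of 0.05, where 2 of 19860 regions (0.0101%) did over the whole table and 58 did without a trend of the spread with level. At an unadjusted p under 0.05, 2 of the 48 and 1753 of the 19860 passed. The lowest adjusted p in the loci by limma was 0.44. The median log2 difference was 0.03 over the 48 regions and 0.02 over all regions, with 28 higher and 20 lower in CREBBP-KO clones and single values between -0.90 and 0.89.

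Both regions at an unadjusted p under 0.05 lay at HIVEP3. Region 42138592 to 42140064 covered 840 and 636 bases in EP300-KO clones, 1293 and 1424 bases in CREBBP-KO clones, and 748 and 974 bases in WT clones. Its CREBBP-KO minus WT log2 difference was 0.65 ± 0.20 (SE) with an adjusted p of 0.44 by limma. Region 42267469 to 42269980, given above, had -0.24 ± 0.085 (SE) with an adjusted p of 0.51 by limma. Neither passed the threshold over all regions.

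The loci hold 4 wide domains, runs of peaks joined where at most 12500 bases separate them, with at least 10 kb covered: the ANKRD33B domain, stretches 4 and 5 of HIVEP3 and the upstream stretch of LRMP. In the ANKRD33B domain the CREBBP-KO minus WT log2 difference was -0.19, with a 95% interval of -0.48 to 0.11 and an adjusted p of 0.47 by limma. That interval runs from 0.715 to 1.08 times the WT level. Stretch 4 of HIVEP3 had 0.05 (-0.23 to 0.34, adjusted p = 0.87 by limma) and stretch 5 had -0.03 (-0.21 to 0.14, adjusted p = 0.86 by limma). The upstream LRMP stretch had 0.07 (-0.33 to 0.46, adjusted p = 0.88 by limma), or 0.798 to 1.38 times the WT level. No member was called, against 11 of 664 wide domains (1.66%) over the whole table, 118 at an unadjusted p under 0.05 and 0 without the trend. In 0 of the 4 were both CREBBP-KO clones below both WT clones, where 9.64% of all wide domains had that order. An exact permutation of 2 against 2 clones cannot give a p under 0.333, so none is reported.

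In 4 of the 4 wide domains each EP300-KO clone had fewer covered bases than each WT clone, an order that 89.3% of all wide domains showed. Over the 458 wide domains with at least 10 kb in both WT clones, the EP300-KO mean had a median of 76.3% of the WT mean, with a 5th percentile of 48.2% and a 95th percentile of 95.5%. ANKRD33B, at 11.9%, was the lowest of the 458. Stretch 4 of HIVEP3 had 7 domains below it, the upstream LRMP stretch 21, and stretch 5 of HIVEP3 149. The CREBBP-KO mean had a median of 101% of the WT mean over the same domains, in a range of 57.4 to 179%. Its 5th percentile was 80.8% and its 95th percentile 122%. By this share 66 of the 458 domains lay below ANKRD33B, 306 below stretch 4 of HIVEP3, 211 below stretch 5 and 327 below the upstream LRMP stretch.

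**Figure D4:**
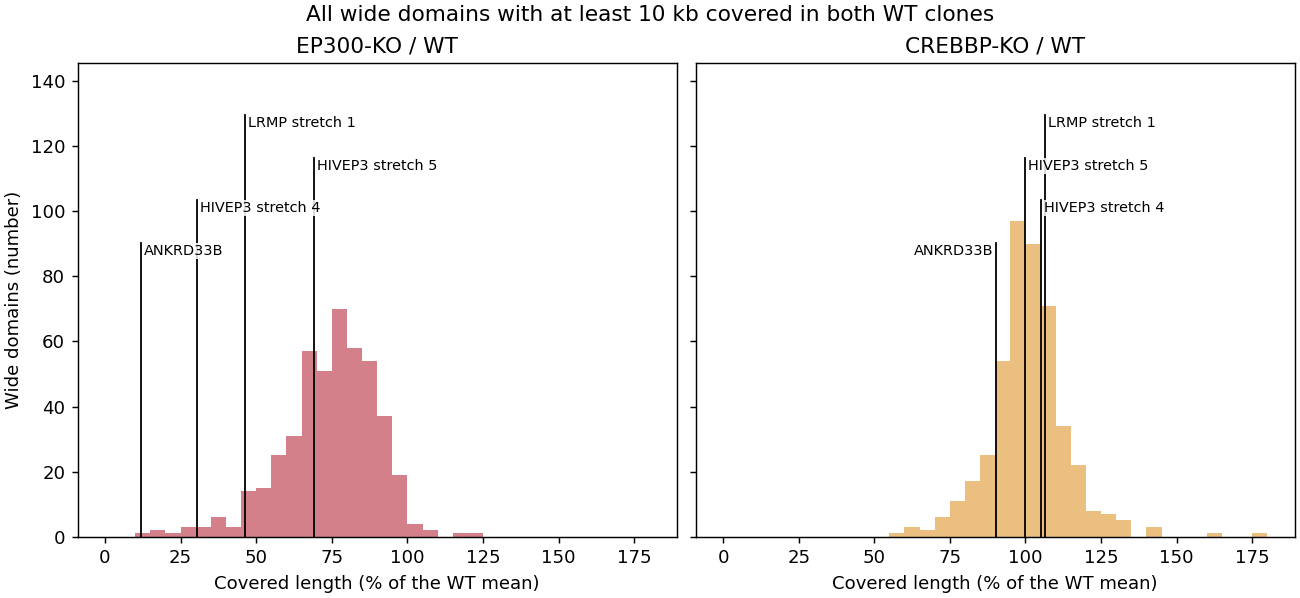
Number of wide domains (y axis) by covered length as a percent of the WT mean (x axis), for EP300-KO (left) and CREBBP-KO (right), over 458 domains with at least 10 kb in both WT clones. Vertical lines mark the 4 domains of the loci: ANKRD33B at 11.9% and HIVEP3 stretch 4 at 30.4% stand in the low tail on the left. On the right ANKRD33B lies at 90.3% and the others between 99.9 and 107%.

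The wide domains with the most similar pattern over the 6 clones were found by the distance between log2 ratios to the WT mean. Nearest to ANKRD33B was a domain on chromosome 12 (94541638 to 94603265) at a distance of 0.826, with 1.71 and 4.07 kb in EP300-KO clones, 10.9 and 19.6 kb in CREBBP-KO clones, and 18.6 and 16.4 kb in WT clones. The next was on chromosome 7 (148198373 to 148224679) at 0.839, with an EP300-KO share of 17.2%. For stretch 4 of HIVEP3 the nearest were on chromosome 12 (68083202 to 68099827) at 0.366 and chromosome 2 (64312404 to 64344288) at 0.509, both with an EP300-KO share of 33.4%. For the upstream LRMP stretch they were on chromosome 5 (158302237 to 158327749) at 0.347 and chromosome 11 (82755861 to 82784748) at 0.378, with EP300-KO shares of 47.2 and 48.3%. Both domains closest to ANKRD33B were thus farther from it than those of the other two stretches were from theirs.

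The bounds of the intervals fell in gaps without peaks, so they decided little about which peaks were counted. The upper bound of HIVEP3 leaves out its farther listed start if the listed spacing holds on hg19. The first region below the ANKRD33B interval (10537304 to 10537573) was 270 bases in WT clone 1 alone, and the first above it (10696267 to 10696500) 234 bases in CREBBP-KO clone 2 alone. Below LRMP, region 25099850 to 25102364 covered 1757 and 1906 bases in EP300-KO clones, 2189 and 2477 bases in CREBBP-KO clones, and 2368 and 2018 bases in WT clones. Above it, region 25310299 to 25311373 covered 607 and 625 bases in EP300-KO clones, 857 and 1075 bases in CREBBP-KO clones, and 436 and 968 bases in WT clones. The first region below HIVEP3 (41845218 to 41846440) had the opposite order, with 1223 and 968 bases in EP300-KO clones, 500 and 355 bases in CREBBP-KO clones, and 239 and 253 bases in WT clones. Just inside, the outermost regions were 10561970 to 10562201 and 10635322 to 10635891 at ANKRD33B, 41981949 to 41984367 and 42277401 to 42277651 at HIVEP3, and 25145275 to 25145485 and 25214155 to 25214341 at LRMP.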

How the data were processed

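H3K27ac was measured by ChIP-seq in 6 clones. CASAVA 1.8, Bowtie2 2.1.0, SAMtools 0.1.19 and build hg19 are named in the submitters' processing notes. Peaks were called for each clone against that clone's input, per the file headers, by a caller not given in the sources used here. Each peak has a deposited score, between 14 or 15 and 170, whose meaning is not stated. Depth is unknown, so no interval here covers it. Positions were taken as 0-based, an assumption that could shift a printed start by 1 base.

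Peaks sharing a base were merged, and covered bases were summed per clone (Python 3.11.15, pandas 2.3.3). CREBBP-KO was tested against WT with limma 3.58.1 (R 4.3.3), with a trend of the spread and all 6 clones in the fit, on log2(covered bases + 100) after subtracting each clone's median, over regions with at least 500 bases in 2 clones, with Benjamini-Hochberg adjustment over all features. Start sites on hg19 were placed to the nearest kb from general knowledge. Named regions were those within 2 kb of a start, the 5 widest by WT mean, the widest in EP300-KO, and for each locus the 2 nearest wide domains. Extremes of the kept and lost regions, regions with a low unadjusted p and those at the bounds were added after their values were seen. Members and lists were chosen with earlier results of these data known.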

Additional observations from a re-analysis of the deposited data

How the results depend on the processing

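Over each whole locus, the share of WT covered length left in EP300-KO clones moved beyond the SD of the clones with 2 settings other than leaving out a clone. With only peaks of at least 500 bases it was 8.51% at ANKRD33B and 47.2% at HIVEP3, and scaled to the total covered length of each clone it was 14.8% at ANKRD33B, 66.1% at HIVEP3 and 71.6% at LRMP. Leaving out 1 clone at a time gave EP300-KO shares of 10.2 to 13.6% at ANKRD33B, 51.0 to 55.4% at HIVEP3 and 49.3 to 66.2% at LRMP, and CREBBP-KO shares of 75.6 to 105%, 91.9 to 112% and 101 to 114% in the same order of loci. Among the stretches, the EP300-KO share of stretch 2 of HIVEP3 was 81.2% with scores of at least 30 and 79.9% with lists of equal length, and that of stretch 6 was 74.9% with scores of at least 30. Without 1 clone it ran from 66.7 to 71.9% in stretch 5, from 73.4 to 89.2% in stretch 6 and from 82.2 to 91.6% in the start-site stretch of LRMP. Regions without an EP300-KO peak numbered 16 at ANKRD33B, 9 with scores of at least 30 and 6 with lists of equal length. Both of these cutoffs also removed WT peaks, so fewer regions were present in both WT clones to be counted. At LRMP, regions without an EP300-KO peak numbered 3, and 5 where a region needed 50% coverage. Without 1 clone the counts ran from 16 to 21 at ANKRD33B, 14 to 22 at HIVEP3 and 3 to 7 at LRMP. The cause was not tested.

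For CREBBP-KO against WT, limma called 2 regions of the whole table, and 4 with a pseudocount of 1000, 4 without centring, 0 with only the WT and CREBBP-KO clones, and 58 without the trend, a setting chosen after seeing the data. It called 11 wide domains, and 3 without centring, 0 with only those 4 clones, 5 with gaps of up to 5 kb and 0 without the trend. Leaving out 1 clone gave 0 to 239 regions and 0 to 88 domains, the highest counts in both cases without WT clone 2; the lone clone left in a group is assumed to vary like the others. The cause was not tested. No region of the 3 loci was called under any of the 12 alternatives run. Of their wide domains, none was called under the 12 alternatives run for stretch 4 of HIVEP3 and the upstream LRMP stretch or the 11 run for ANKRD33B and stretch 5 of HIVEP3, for which gaps of up to 5 kb gave no value. These came with limma adjusted p-values from 0.14 to 1 for the regions and from 0.19 to 1.00 for the domains. With 1 clone left out, the CREBBP-KO minus WT log2 difference of 3 domains changed sign: it ran from -0.122 to 0.228 in stretch 4 of HIVEP3 (lowest without WT clone 1), from -0.0814 to 0.0131 in stretch 5 (highest without CREBBP-KO clone 1) and from -0.0505 to 0.185 in the upstream LRMP stretch (lowest without WT clone 1). No paired analysis was possible because the replicate numbers only name clones and the labels tie no clone to one of another genotype. With 2 clones a group and no depth given, differences smaller than the intervals above could not be detected.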
